A study of Mus musculus with 26 samples.

Results

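Collagen chain genes encode the polypeptides of the collagens, the main structural proteins of the extracellular matrix. They were taken here as every row of the RNA-seq count tables whose symbol has the form Col, a type number, the letter a and a chain number, which gave 44 genes of 52535 rows naming a gene. By type they fell into 11 fibrillar chains, 6 basement membrane chains and 27 others. Each collagen is wound from 3 chains, so a trimer of different chains needs those chains to be made together. Fibrillar collagens form the cables of skin, bone, tendon and cartilage, type IV collagen forms the sheet-like network of basement membranes, and the others coat, link or anchor these structures. The early embryo lays down basement membrane long before fibrillar matrix becomes prominent, and cells kept on gelatin, which is denatured collagen, rest on matrix that they did not make.

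The cells came from E14, a mouse embryonic stem cell (ESC) line, maintained on gelatin with serum, leukaemia inhibitory factor (LIF), the MEK inhibitor PD0325901 and the GSK3 inhibitor CHIR99021. Both groups are labelled neural progenitor cells (NPC) after 12 days of neural induction, and they carry either a knockout of Klf4, a pluripotency transcription factor (KO-labelled), or no named change (WT-labelled). RNA-seq counts were given for 2 libraries per label, and RNA polymerase II HiChIP, which joins the ends of DNA contacts made at polymerase-bound chromatin, as 1 loop list per label. Neither the number of knockout clones, nor how Klf4 was knocked out, nor the steps of the induction is given in the sources used here.

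The targeted gene went against the labels. Klf4 had 2571 and 2538 counts in the KO-labelled libraries, against 0 and 0 in the WT-labelled libraries, so the groups are named by their labels throughout, and every direction below is that of the library labelled KO over the library labelled WT. In the loop lists, Klf4 had 2 loops with 4 tags in the KO-labelled list and 1 loop with 32 tags in the WT-labelled list, and the genotype behind each list could not be checked. Gene counts per library were 31909094 and 33347088 in KO-labelled and 37703866 and 29835774 in WT-labelled libraries, and 17273 genes passed the low-count filter and were tested with edgeR's quasi-likelihood test. Of those, 73.1% were called at an adjusted p below 0.05, 37.2% higher and 35.8% lower in KO-labelled libraries, so a call by itself was common. Marker sums also moved with the labels. The 8 pluripotency markers summed to 4135 and 4210 CPM (counts scaled to a common TMM-adjusted library size) in KO-labelled libraries, against 7858 and 7876 CPM in WT-labelled libraries, with 7 lower and 1 higher. The 10 neural progenitor markers summed to 297 and 305 CPM in KO-labelled libraries, against 86.2 and 84.9 CPM in WT-labelled libraries. Otx2 made up most of the KO-labelled sums, at 171 and 168 CPM, and Nes most of the WT-labelled sums, at 73.4 and 73.3 CPM. Of the 9 tested, 9 were higher, though Pax3 and Fabp7, at 0 in both WT-labelled libraries, could only be found higher or not called. Pluripotency markers thus summed to at least 4135 CPM in all 4 libraries, which goes against a sample of neural progenitors alone, and the cells are called by their labels.

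Most collagen chains were higher in the KO-labelled libraries. Of the 44 genes, 26 were higher, 2 were lower, 6 were tested and not called, and 10 had too few counts to be tested. A rise of at least 2-fold was seen in 22 of the 34 tested chains, against 22.3% of all genes tested, and a rise of at least 8-fold in 13 of the 34, against 7.16% of all genes tested. The median log2 fold change of the 34 was 2.86, against 0.03 over all genes tested. Values of the 2 labels did not overlap in 33 of the 34 chains, against 86.3% of all genes tested.

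Part of these counts and of the median follows from the filter, so they are no support for a rise of the chains as a group. Of the 34 chains tested, 10 reached the filter's minimum of 0.306 CPM before TMM scaling (10 counts at the median library size) in both KO-labelled libraries and in neither WT-labelled library, against 7.89% of all genes tested, so these could only be found higher or not called. They were Col1a2, Col3a1, Col4a6, Col6a1, Col6a2, Col8a1, Col8a2, Col9a1, Col12a1 and Col14a1. Among the other 24 chains, 18 were higher (75.0%), 2 lower (8.33%) and 4 not called. Of the 15484 genes left when the same rule was applied to both labels, 34.0% were higher and 37.6% lower. A rise of at least 2-fold was seen in 14 of those 24 (58.3%, against 17.3%) and of at least 8-fold in 5 (20.8%, against 2.69%), with a median log2 fold change of 1.79, against -0.04. The 24 still include Col5a2, Col6a4 and Col6a5, which reached the minimum in both KO-labelled libraries and in only 1 WT-labelled library. The comparison is thus not free of the filter, and the chains were not recounted without them.

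Summed over all 44 chains, collagen transcripts took 1216 and 1204 CPM in KO-labelled libraries, against 457 and 473 CPM in WT-labelled libraries. A large part of both sums came from Col18a1 alone. Without it the sums were 641 and 639 CPM in KO-labelled libraries, against 121 and 123 CPM in WT-labelled libraries. As a share of gene counts before scaling, collagens made up 0.131% and 0.129% in KO-labelled libraries, against 0.0425% and 0.0439% in WT-labelled libraries. In bulk RNA, fewer cells that make a collagen and less of its RNA per cell cannot be told apart. CPM were not divided by transcript length, so levels are compared between labels for each gene and not between genes.

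**Figure D1:**
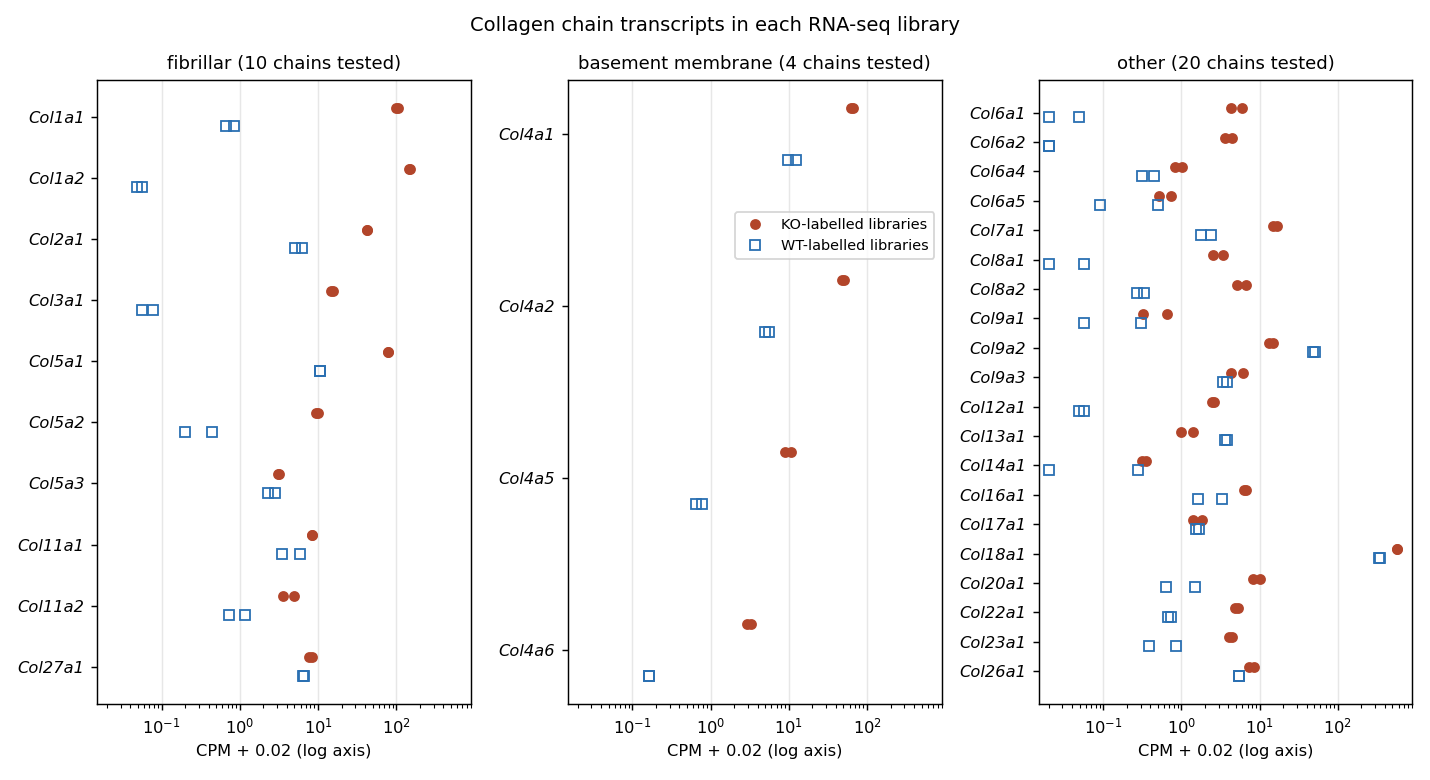
CPM of each tested collagen chain plus 0.02 on a log axis, with filled circles for the 2 KO-labelled libraries and open squares for the 2 WT-labelled libraries, in panels for fibrillar, basement membrane and other chains. Circles lie right of squares for most chains, Col9a2 and Col13a1 show the reverse order, and Col17a1 overlaps.

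Of the 11 fibrillar chains, 8 were higher, none was lower, 2 were not called and 1, Col24a1, was not tested. The median log2 fold change of the 10 tested was 2.90. For each class, the background was 37.2% higher and 35.8% lower over all genes tested, with a median of 0.03. Col1a2 and Col3a1 passed the filter through the KO-labelled libraries alone, and Col5a2 reached its minimum in only 1 WT-labelled library. The class count and median thus rest partly on the filter. The summed level of the fibrillar chains was 423 and 415 CPM in KO-labelled libraries, against 32.4 and 31.4 CPM in WT-labelled libraries.

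Type I collagen, the main protein of bone, tendon and skin, joins 2 chains of Col1a1 with 1 chain of Col1a2. Col1a1 had 106 and 101 CPM in KO-labelled libraries, against 0.826 and 0.650 CPM (29 and 18 counts) in WT-labelled libraries. Its log2 fold change was 7.10 (n = 2 each, adjusted p = 1.95e-25). Its partner Col1a2 had 149 and 144 CPM in KO-labelled libraries, against 1 count in each WT-labelled library (0.0285 and 0.0361 CPM). Col1a2 was thus under the floor of 3 counts in the WT-labelled libraries, while Col1a1 was low there but counted. The Col1a2 ratio was 4593, with an exact binomial 95% interval of 1271 to 37928 that covers counting error only (adjusted p = 2.13e-27). Col3a1, whose homotrimer accompanies type I collagen in elastic tissues, had 14.6 and 15.6 CPM in KO-labelled libraries, against 2 counts and 1 count in WT-labelled libraries. Its ratio was 316, with an interval of 108 to 1536 (adjusted p = 2.29e-17).

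Col1a2 and Col3a1 were both higher, having both passed the filter through the KO-labelled libraries alone. The 250 bases before their RefSeq starts (GRCm38.p6, the assembly of mm10) are shown to compare these promoters. CACCC and its reverse complement GGGTG, a core motif that Krüppel-like factors such as Klf4 are known to bind, are in capitals. The Col1a2 window is chr6:4505368-4505617, plus strand, and the Col3a1 window is chr1:45311288-45311537, plus strand.
Col1a2: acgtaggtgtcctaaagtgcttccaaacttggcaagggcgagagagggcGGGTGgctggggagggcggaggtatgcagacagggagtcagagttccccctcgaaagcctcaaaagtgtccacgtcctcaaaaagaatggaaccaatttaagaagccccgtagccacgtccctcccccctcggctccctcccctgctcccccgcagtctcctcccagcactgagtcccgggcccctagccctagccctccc
Col3a1: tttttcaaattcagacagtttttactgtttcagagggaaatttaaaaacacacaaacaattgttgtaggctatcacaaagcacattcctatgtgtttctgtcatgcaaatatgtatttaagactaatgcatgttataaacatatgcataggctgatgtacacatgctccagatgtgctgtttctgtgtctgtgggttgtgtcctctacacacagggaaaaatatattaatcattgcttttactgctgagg
They had little composition in common. GC content was 62.0% for Col1a2 and 35.2% for Col3a1. The Col3a1 window held no CACCC and a TATAAA that began 117 bases before the start, and the Col1a2 window held 1 CACCC, 1 CCAAT box and 2 matches to the GC box GGGCGG. A match is a string of letters, not a shown binding site.

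Type V and type XI chains, which nucleate fibrils of types I and II and set their width, were mixed. Col5a1 had 78.5 and 78.0 CPM in KO-labelled libraries, against 10.7 and 10.5 CPM in WT-labelled libraries, a log2 fold change of 2.89 ± 0.074 (SE, adjusted p = 3.86e-21). Col5a2 had 9.48 and 9.99 CPM in KO-labelled libraries, against 0.427 and 0.181 CPM in WT-labelled libraries (4.93 ± 0.29, adjusted p = 1.08e-13). These partners of the common type V trimer were both higher. Col5a2 reached the filter's minimum in only 1 WT-labelled library, so their shared direction rests partly on the filter. The third chain, Col5a3, was not called at 3.09 and 3.18 CPM in KO-labelled libraries, against 2.25 and 2.78 CPM in WT-labelled libraries (adjusted p = 0.294). Col11a2 had 3.56 and 4.91 CPM in KO-labelled libraries, against 0.712 and 1.16 CPM in WT-labelled libraries, a log2 fold change of 2.20 ± 0.33. Col11a1 rose less, at 8.40 and 8.31 CPM in KO-labelled libraries, against 5.87 and 3.40 CPM in WT-labelled libraries (0.83 ± 0.21, adjusted p = 0.00099). Its WT-labelled values lay far apart from each other, and still below both KO-labelled ones.

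Col2a1, the fibril-forming chain of cartilage, which the notochord and embryonic epithelia also make, had 41.7 and 42.6 CPM in KO-labelled libraries, against 5.04 and 6.25 CPM in WT-labelled libraries (log2 fold change 2.91 ± 0.11, adjusted p = 8.95e-18). Col27a1, a fibrillar chain of cartilage, had 8.40 and 7.75 CPM in KO-labelled libraries, against 6.53 and 6.40 CPM in WT-labelled libraries, and was not called (0.32 ± 0.16, adjusted p = 0.0801). That gene was the fibrillar chain whose call depended on the scaling: with library size alone its adjusted p was 0.00540, and with upper-quartile factors 0.0284. Col24a1 had 2 and 11 counts in KO-labelled libraries and 0 and 0 in WT-labelled libraries.

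All 4 tested basement membrane chains were higher, of which Col4a6 passed the filter through the KO-labelled libraries alone. The summed level of the class was 127.1 and 126.9 CPM in KO-labelled libraries, against 15.7 and 19.1 CPM in WT-labelled libraries. Type IV chains are encoded in head-to-head gene pairs, each pair transcribed away from a common promoter region, and the trimers draw on Col4a1 with Col4a2, Col4a5 with Col4a6, or Col4a3 with Col4a4 and Col4a5. Col4a1 had 66.0 and 63.2 CPM in KO-labelled libraries, against 9.86 and 12.5 CPM in WT-labelled libraries (log2 fold change 2.54 ± 0.090, adjusted p = 9.72e-18). Col4a2 had 48.2 and 50.1 CPM in KO-labelled libraries, against 4.93 and 5.64 CPM in WT-labelled libraries (3.23 ± 0.10, adjusted p = 2.47e-19). Both chains of this near-ubiquitous trimer were therefore higher by sizes of the same order. Their RefSeq starts are 21 bases apart and their transcripts share 85 bases, and without a stated strand setting reads in that stretch cannot be told apart.

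Both chains of the X-linked pair were also higher, Col4a6 having passed the filter through the KO-labelled libraries alone. Col4a5 had 8.90 and 10.6 CPM in KO-labelled libraries, against 0.627 and 0.759 CPM in WT-labelled libraries (3.82 ± 0.25, adjusted p = 5.28e-13). Col4a6 had 3.27 and 2.93 CPM in KO-labelled libraries, against 0.142 and 0.145 CPM in WT-labelled libraries (4.40 ± 0.48, adjusted p = 9.67e-09). The third pair could not be tested. Col4a3 had 0 counts in all 4 libraries, which allows up to 3 counts or 0.0837 to 0.108 CPM per library, and Col4a4 had 22 and 5 counts in KO-labelled libraries, against 5 and 1 in WT-labelled libraries. The starts of Col4a5 and Col4a6 listed here lie 1343 bases apart on opposite strands. Their windows are shown because they flank the stretch from which both rising genes are read, Col4a5 at chrX:141475169-141475418, plus strand, and Col4a6 at chrX:141474077-141474326, minus strand, with CACCC or GGGTG in capitals.
Col4a5: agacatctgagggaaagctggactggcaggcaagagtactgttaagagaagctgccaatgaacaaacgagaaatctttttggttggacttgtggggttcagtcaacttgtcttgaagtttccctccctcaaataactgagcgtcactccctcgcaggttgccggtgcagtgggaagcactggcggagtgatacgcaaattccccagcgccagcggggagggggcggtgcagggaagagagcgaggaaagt
Col4a6: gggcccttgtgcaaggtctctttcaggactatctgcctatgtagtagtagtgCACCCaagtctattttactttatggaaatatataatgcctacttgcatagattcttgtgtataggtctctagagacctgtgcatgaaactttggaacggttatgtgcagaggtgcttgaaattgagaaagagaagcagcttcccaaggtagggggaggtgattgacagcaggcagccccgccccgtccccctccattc
The Col4a6 window held a CACCC and the Col4a5 window none, and GC content was 47.6% for Col4a6 and 54.0% for Col4a5.

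**Figure D2:**
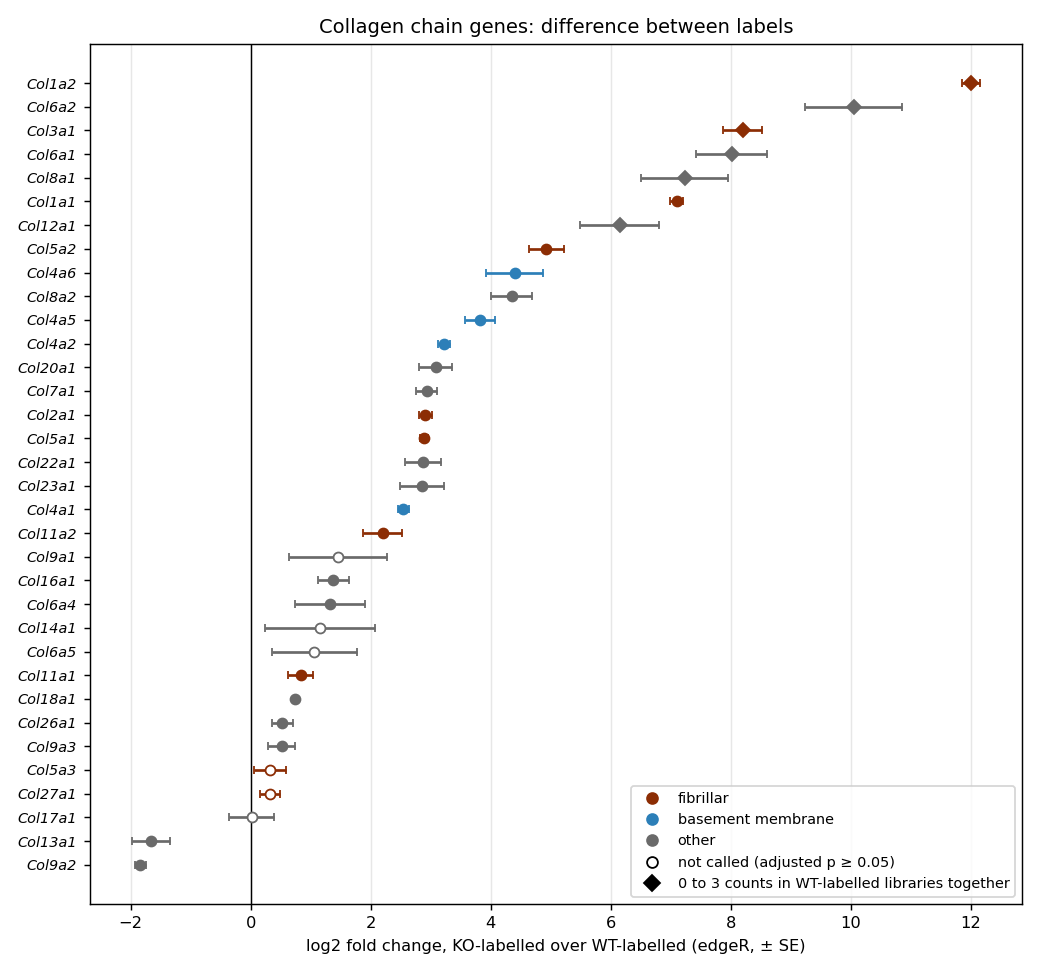
Log2 fold change of KO-labelled over WT-labelled libraries for the 34 tested chains, with bars of ± SE, coloured by class, open where not called. Diamonds mark chains with 0 to 3 counts in the WT-labelled libraries together, whose fitted values rest on the prior count of the fit. Bars are too short where a large fold change rests on few counts, as for Col1a1 and Col1a2. Col13a1 and Col9a2 are the filled points left of 0.

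The other chains went both ways, with 14 higher, 2 lower, 4 not called and 7 not tested of 27. The median log2 fold change was 1.42 over the 20 tested. Among these, Col6a1, Col6a2, Col8a1, Col8a2, Col9a1, Col12a1 and Col14a1 passed the filter through the KO-labelled libraries alone. Col6a4 and Col6a5 reached its minimum in only 1 WT-labelled library. Type VI collagen forms beaded filaments around cells from Col6a1, Col6a2 and a longer chain. Col6a1 had 4.29 and 5.86 CPM in KO-labelled libraries, against 1 count and 0 counts in WT-labelled libraries, a ratio of 320 with an interval of 57.0 to 12656 (adjusted p = 7.42e-12). Col6a2 had 3.56 and 4.38 CPM in KO-labelled libraries, against 0 and 0 counts in the WT-labelled ones, a rise of at least 40.9-fold against a floor of 3 counts per library (adjusted p = 6.37e-11). The longer chain Col6a3 that usually completes this trimer did not appear with them: it had 6 and 10 counts in KO-labelled libraries and 5 and 7 in WT-labelled libraries, too few to test. Col6a4 had 0.817 and 1.00 CPM in KO-labelled libraries, against 0.427 and 0.289 CPM in WT-labelled libraries. Its call (adjusted p = 0.0476) was lost with DESeq2 (0.0911), without the filter (0.0801) and on leaving out any library (adjusted p 0.0725 to 0.267). Col6a5 had 17 and 26 counts in KO-labelled libraries, against 17 and 2 in WT-labelled libraries, and was not called (adjusted p = 0.185), although it was without WT-labelled replicate 1 (0.0319). Col6a6 ran the other way in too few counts to test, at 0 and 0 in KO-labelled libraries and 9 and 10 in WT-labelled libraries, at least 3.61-fold lower against the floor.

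Both tested network-forming chains and the anchoring chain rose. Col8a1 and Col8a2 form the hexagonal lattice of type VIII collagen found under endothelia. Col8a1 had 2.54 and 3.38 CPM in KO-labelled libraries, against 0 counts and 1 count in WT-labelled libraries, a ratio of 186 with an interval of 33.0 to 7388 (adjusted p = 1.98e-09). Col8a2 had 6.62 and 5.16 CPM in KO-labelled libraries, against 0.313 and 0.253 CPM in WT-labelled libraries (4.35 ± 0.35, adjusted p = 3.69e-11). Both chains passed the filter through the KO-labelled libraries alone and could only be found higher or not called, so their shared direction is no support for the pair. Col7a1, the anchoring fibril chain that ties epithelial basement membrane to the matrix below, had 14.9 and 16.8 CPM in KO-labelled libraries, against 2.34 and 1.77 CPM in WT-labelled libraries (2.93 ± 0.17, adjusted p = 9.84e-14).

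Chains of the fibril-associated (FACIT) group went both ways. Type IX collagen, which sits on type II fibrils in cartilage, is built from Col9a1, Col9a2 and Col9a3. Col9a2 was the chain that fell furthest, with 14.6 and 13.1 CPM in KO-labelled libraries, against 48.4 and 50.6 CPM in WT-labelled libraries (log2 fold change -1.84 ± 0.085, adjusted p = 5.81e-16). Its partners did not fall with it. Col9a3 had 4.32 and 6.08 CPM in KO-labelled libraries, against 3.82 and 3.43 CPM in WT-labelled libraries (0.52 ± 0.23, adjusted p = 0.0426), a call lost with DESeq2 (0.0886), without the filter (0.0525), without KO-labelled replicate 2 (0.488) and without WT-labelled replicate 2 (0.104). Col9a1 had 22 and 11 counts in KO-labelled libraries, against 10 and 1 in WT-labelled libraries, and was not called (adjusted p = 0.110), though it was without WT-labelled replicate 1 (0.0441). Col9a3 shares 237 bases with its neighbour Tcfl5, whose reads cannot be told apart there.

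Among the remaining FACIT and related chains, Col12a1, which decorates type I fibrils in tendon, had 2.45 and 2.59 CPM in KO-labelled libraries, against 1 count in each WT-labelled library, a ratio of 79.2 with an interval of 21.6 to 659 (adjusted p = 7.15e-09). Col20a1 had 8.20 and 10.2 CPM in KO-labelled libraries, against 1.48 and 0.614 CPM in WT-labelled libraries (3.08 ± 0.27, adjusted p = 1.43e-09). Col22a1, a chain of tissue junctions, had 5.25 and 4.83 CPM in KO-labelled libraries, against 0.655 and 0.723 CPM in WT-labelled libraries (2.87 ± 0.31, adjusted p = 6.93e-09). In each of these 3 the labels lay further apart than the libraries of a label. Col16a1 rose less, at 6.62 and 6.30 CPM in KO-labelled libraries, against 3.31 and 1.59 CPM in WT-labelled libraries (1.37 ± 0.26, adjusted p = 6.60e-05). Col14a1 had 10 and 12 counts in KO-labelled libraries, against 9 and 0 in WT-labelled libraries, and was not called (adjusted p = 0.261), though it was without WT-labelled replicate 1 (0.0375).

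The transmembrane collagens are type II membrane proteins whose ectodomains can be shed, and the tested members went 3 ways. Col23a1 had 4.46 and 4.02 CPM in KO-labelled libraries, against 0.370 and 0.831 CPM in WT-labelled libraries (2.85 ± 0.36, adjusted p = 1.20e-07). Col13a1 had 1.37 and 0.976 CPM in KO-labelled libraries, against 3.62 and 3.83 CPM in WT-labelled libraries (-1.66 ± 0.31, adjusted p = 4.05e-05). Col17a1, the hemidesmosome collagen of basal epithelium, had 1.84 and 1.37 CPM in KO-labelled libraries, against 1.51 and 1.66 CPM in WT-labelled libraries (0.02 ± 0.37, adjusted p = 0.971). It was the tested chain whose labels overlapped.

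Col18a1, a basement membrane collagen whose end fragment is endostatin, had 575 and 566 CPM in KO-labelled libraries, against 336 and 350 CPM in WT-labelled libraries (0.73 ± 0.028, adjusted p = 1.55e-17). Its rise was small beside those of the type IV chains, but precise. Col26a1 had 7.24 and 8.40 CPM in KO-labelled libraries, against 5.41 and 5.46 CPM in WT-labelled libraries (0.52 ± 0.17, adjusted p = 0.00936), a call lost without KO-labelled replicate 2 (0.123). The rest were at the edge of detection. Col10a1 had 1 and 2 counts in KO-labelled libraries and 0 and 3 in WT-labelled libraries. Col15a1 had 2 and 8 counts in KO-labelled libraries and 0 and 2 in WT-labelled libraries. For Col25a1 the counts were 5 and 17 in KO-labelled and 4 and 0 in WT-labelled libraries, and for Col28a1 they were 0 and 1 in KO-labelled and 1 and 6 in WT-labelled libraries. All 4 of these were too low to test. Col19a1 had 0 counts in all 4 libraries.

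Collagens need enzymes, receptors and matrix partners, and 89 such genes in 7 lists were read from the same fit. Of the 77 tested, 42 were higher, 21 lower and 14 not called, with a median log2 fold change of 0.52. For each list, the background was 37.2% higher and 35.8% lower over all genes tested, with a median of 0.03. The filter limits these counts too. Tested members under its minimum in both WT-labelled libraries passed it through the KO-labelled libraries alone. Among them were Loxl4 and Bgn, at 0 there, and P3h2, Itga11 and Thbs1, at 8 counts or fewer per library. Such members could only be found higher or not called, and the lists were not recounted without them. The list of collagen hydroxylases and chaperones held 22 genes, some of which, such as the transcription factor Creb3l1, are neither. Of these 22, 7 were higher, 10 lower and 5 not called, with a median of -0.06, which is near that background. Within this list, the prolyl 3-hydroxylase P3h2 (2.25 and 2.62 CPM in KO-labelled libraries, against 0.228 CPM and 0 in WT-labelled libraries, 4.24 ± 0.62) and the collagen-inducing transcription factor Creb3l1 (18.2 and 20.3 CPM in KO-labelled libraries, against 1.85 and 1.26 CPM in WT-labelled libraries, 3.60 ± 0.18) rose furthest. Crtap, the partner of prolyl 3-hydroxylase 1, fell furthest, with 47.8 and 49.1 CPM in KO-labelled libraries, against 129 and 134 CPM in WT-labelled libraries (-1.44 ± 0.049, adjusted p = 1.11e-18). The prolyl 4-hydroxylase subunit P4ha3 also fell (-1.41 ± 0.58, adjusted p = 0.0332), a call lost with DESeq2 (0.0612), with library size alone (0.0677), without the filter (0.0555) and on leaving out any library (0.0810 to 0.158).

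Next came genes that act on procollagen and collagen outside the cell. Of 8 procollagen proteinases and enhancers tested, 4 were higher and 4 lower. Bmp1, the C-proteinase that trims procollagen, had 19.2 and 17.1 CPM in KO-labelled libraries, against 2.02 and 1.73 CPM in WT-labelled libraries (3.26 ± 0.17, adjusted p = 4.01e-15), and Adamts3, an N-proteinase, rose by 2.99 ± 0.42. Pcolce, which enhances cleavage by Bmp1, ran the other way, with 43.6 and 45.9 CPM in KO-labelled libraries, against 129 and 136 CPM in WT-labelled libraries (-1.57 ± 0.050, adjusted p = 4.06e-19), as did the proteinase Mep1b (-5.13 ± 0.18). Of 6 cross-linking enzymes tested, 5 were higher and 1, Loxl3, was lower (-1.03 ± 0.25), with a median of 2.03. Peroxidasin (Pxdn), which forms the sulfilimine cross-links of type IV collagen, had 100.1 and 103 CPM in KO-labelled libraries, against 7.21 and 5.60 CPM in WT-labelled libraries (3.97 ± 0.084, adjusted p = 1.82e-22). The lysyl oxidase Loxl4 had 3.15 and 2.34 CPM in KO-labelled libraries, against 0 and 0 in WT-labelled libraries, at least 28.3-fold higher.

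Receptors, remodelling enzymes and fibril partners were counted in the same way. Of 9 collagen receptors tested, 6 were higher, 1 lower and 2 not called, with the integrin chain Itga11 (4.09 ± 0.63) and the endocytic receptor Mrc2 (2.71 ± 0.15) the furthest up and the discoidin receptor Ddr2 down (-1.22 ± 0.33). Of 10 collagen-degrading proteases and inhibitors tested, 7 were higher, 1 lower and 2 not called. Mmp2, a gelatinase that also cleaves type IV collagen, had 92.7 and 87.8 CPM in KO-labelled libraries, against 3.73 and 4.73 CPM in WT-labelled libraries (4.43 ± 0.091, adjusted p = 5.13e-23), and its inhibitor Timp2 rose by 4.71 ± 0.18 while Timp1 fell (-1.31 ± 0.10). Of 10 fibril-associated proteoglycans and glycoproteins tested, 8 were higher and 2 not called. Thbs1, which encodes thrombospondin 1, had 143 and 137 CPM in KO-labelled libraries. In WT-labelled libraries it had 4 and 3 counts, or 0.114 and 0.108 CPM (log2 fold change 10.24, adjusted p = 3.28e-27). The proteoglycan Bgn had 6.68 and 7.39 CPM in KO-labelled libraries, against 0 and 0 in WT-labelled libraries, at least 72.6-fold higher. Both passed the filter through the KO-labelled libraries alone.

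The laminins, nidogens and other proteins that share the basement membrane with type IV collagen formed the last list. Of 12 tested, 5 were higher, 4 lower and 3 not called, counts near the background of 37.2% higher and 35.8% lower, with a median log2 fold change of 0.04. The laminin chain Lamb1 had 210.4 and 204 CPM in KO-labelled libraries, against 45.3 and 46.6 CPM in WT-labelled libraries (2.17 ± 0.044, adjusted p = 3.09e-23), and the perlecan gene Hspg2 rose by 0.71 ± 0.027. The laminin chain Lama1 had 15.9 and 16.3 CPM in KO-labelled libraries, against 77.0 and 74.9 CPM in WT-labelled libraries (-2.24 ± 0.069, adjusted p = 1.55e-19). Nid1, which bridges laminin and type IV collagen, had 79.4 and 74.4 CPM in KO-labelled libraries, against 346 and 344 CPM in WT-labelled libraries (-2.17 ± 0.037, adjusted p = 1.14e-24).

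**Figure D3:**
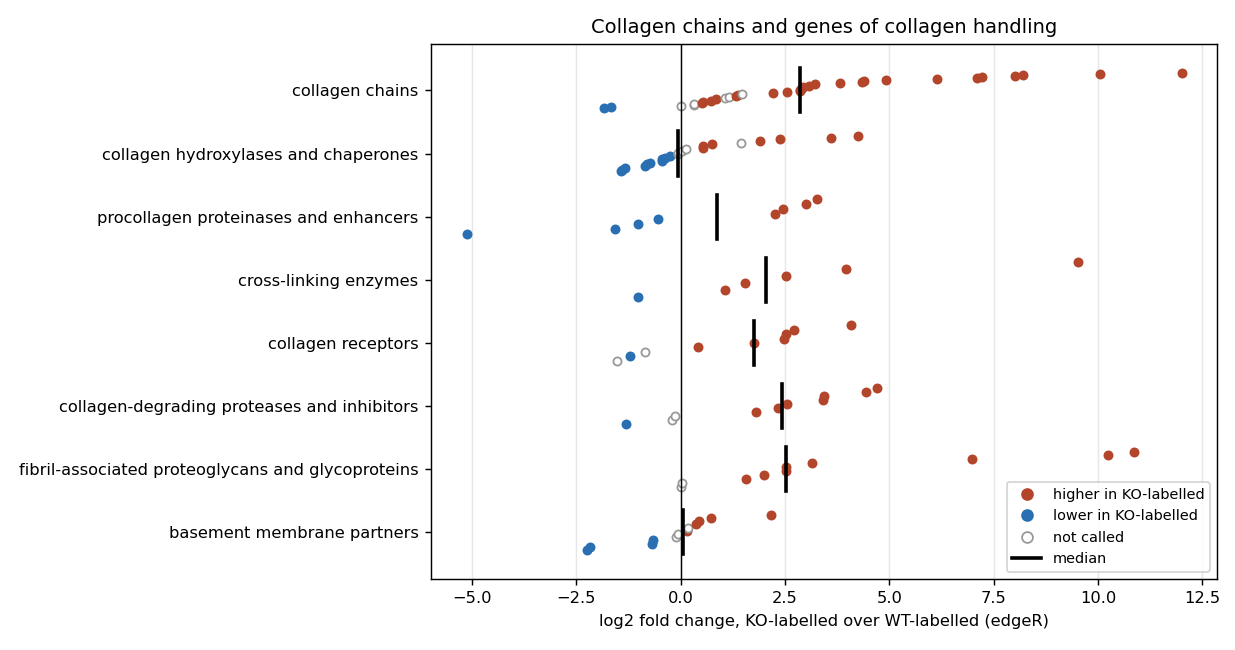
Log2 fold change of KO-labelled over WT-labelled libraries for each tested collagen chain and each tested gene of the 7 partner lists, with filled points for calls, open points for genes not called and a bar at the median of each row. The median bar stands at 2.86 for the chains, near 0 for hydroxylases and chaperones and for basement membrane partners, and between 0.86 and 2.53 for the other lists.

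Markers of cell types that make collagen also differed between the labels, and their part in the result was not tested. Their counts stand against 37.2% of all genes tested higher and 35.8% lower. Tested markers at 0 in both WT-labelled libraries, such as Foxc2 and Tie1, could only be found higher or not called. Primitive and parietal endoderm, which secretes type IV collagen and laminin, had 10 of 10 markers higher. Their sums were 272 and 268 CPM in KO-labelled libraries, against 49.3 and 50.8 CPM in WT-labelled libraries. Most of these sums was Lamb1, at 210.4 and 204 CPM in KO-labelled libraries, against 45.3 and 46.6 CPM in WT-labelled libraries. Lamb1 is in both that list and the basement membrane list. Fibroblast and mesenchyme markers were higher in 9 of 10 tested, with sums of 202 and 199 CPM in KO-labelled libraries, against 12.7 and 12.9 CPM in WT-labelled libraries. Most of the KO-labelled sum was Acta2, smooth muscle actin, at 152 and 148 CPM, while Dpt and Fap were at 0 in all 4 libraries, and 5 of the 12 markers were at 0 in both WT-labelled libraries. Chondrocyte and notochord markers were higher in 6 and lower in 2 of 8, with sums of 30.8 and 34.8 CPM in KO-labelled libraries, against 12.9 and 11.1 CPM in WT-labelled libraries. Endothelial markers were higher in 5 and lower in 1 of 7 (133 and 133 CPM in KO-labelled libraries, against 95.7 and 99.8 CPM in WT-labelled libraries). Most of these sums was Pecam1, the lower marker. Trophoblast and epithelial markers were higher in 3 and lower in 2 of 5 (496 and 491 CPM in KO-labelled libraries, against 125 and 126 CPM in WT-labelled libraries). Krt8 (201 and 201 CPM) and Krt18 (192 and 191 CPM) made up most of the KO-labelled sums, and Tfap2c (95.7 and 98.9 CPM) most of the WT-labelled sums.

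Loops with an anchor within 2500 bases of a collagen chain gene were then counted in both HiChIP lists, keeping loops with a false discovery rate of at most 0.01 and at least 2 tags. Because there is 1 list per label, no test was made. The KO-labelled list kept 57463 loops with 285890 tags, and the WT-labelled list 22148 loops with 175142 tags. Collagen loops numbered 577 in the KO-labelled list, 1.00% of its loops (exact binomial 95% interval 0.924% to 1.09%), and 25 in the WT-labelled list, 0.113% (0.0731% to 0.167%). By tags the shares were 0.938% (0.903% to 0.974%) in the KO-labelled list and 0.0697% (0.0578% to 0.0832%) in the WT-labelled list. The collagen share of loops was thus higher in the KO-labelled list both by loops and by tags, and the intervals cover counting error only.

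The lists also differ in how much was called at all. Over all deposited loops, the KO-labelled list had 185 distinct anchors covering 694 kb at 36 collagen genes, and the WT-labelled list had 19 distinct anchors covering 63.1 kb at 16 collagen genes, while the kept loops as a whole used 28990 anchors over 114886 kb in the KO-labelled list and 13073 anchors over 61642 kb in the WT-labelled list. A gene without an anchor in a list can have no loop there. In the KO-labelled list 24 of 44 collagen genes (54.5%) had a kept loop, against 54.3% of all protein-coding genes. In the WT-labelled list 8 of 44 (18.2%) did, against 37.8% of all protein-coding genes. The KO-labelled share thus sat at the background and the WT-labelled share below it. Collagen genes are long, with a median span of 114 kb against 17.2 kb over 21883 protein-coding genes, and long genes have more room for an anchor. Among genes of at least the collagen median span, 8 of 22 collagen genes (36.4%) had a loop in the KO-labelled list, against 65.4% of 2029 protein-coding genes, and 3 of 22 (13.6%) in the WT-labelled list, against 41.4%. At starts alone, 11 of 35 collagen genes with a RefSeq start had a loop in the KO-labelled list, against 46.4% of protein-coding genes, and 3 of 35 in the WT-labelled list, against 31.1%.

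**Figure D4:**
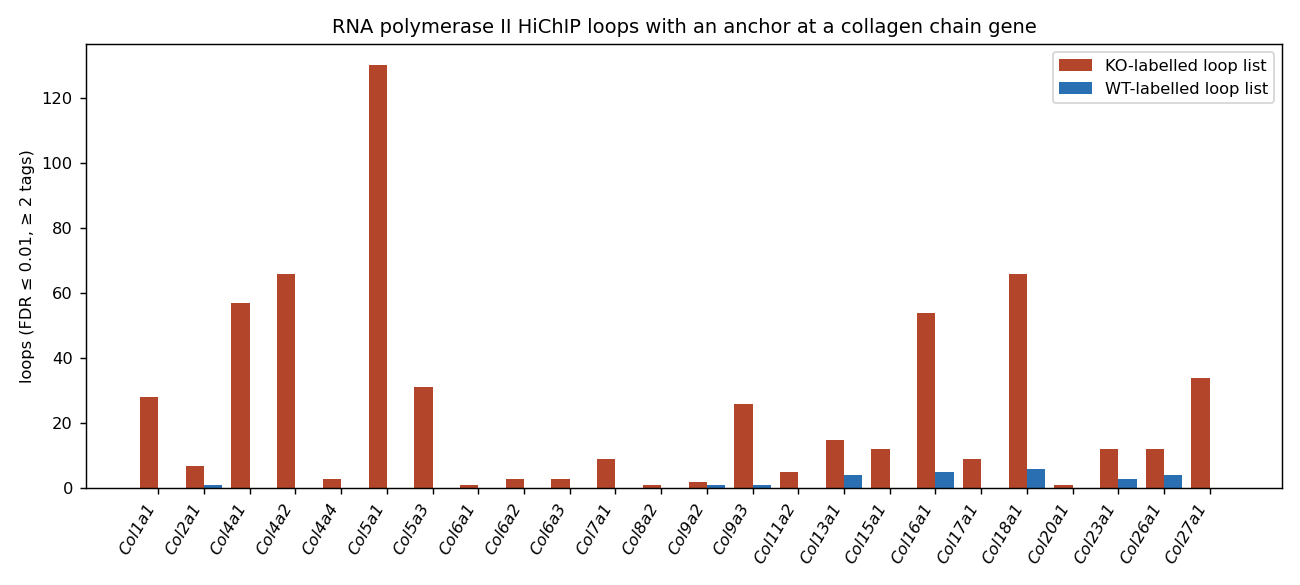
Kept loops per collagen chain gene, with bars for the KO-labelled and WT-labelled lists side by side, for the 24 genes with a loop in either list. Col5a1 has the tallest bar, with 130 loops in the KO-labelled list and 0 in the WT-labelled list, and no gene has a loop in the WT-labelled list alone.

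Loops were spread unevenly over the genes. A loop in the KO-labelled list alone was found for 16 genes, in both lists for 8, and in neither for 20. Fibrillar genes had 235 loops in the KO-labelled list and 1 in the WT-labelled list, basement membrane genes 118 in the KO-labelled list and 0 in the WT-labelled list, and the others 224 in the KO-labelled list and 24 in the WT-labelled list. Col5a1 led with 130 loops and 671 tags in the KO-labelled list, of which 78 loops shared a 38.1-kb anchor at chr2:28002416-28040555, and none in the WT-labelled list. Of its 121 loops that left the gene, 49 ended at no protein-coding gene. The protein-coding genes met most often at the far ends were Rxra (15 loops), Vav2 (13) and Olfm1 (11), on the same chromosome. Col1a1 had 28 loops with 183 tags in the KO-labelled list and none in the WT-labelled list. The head-to-head genes Col4a1 and Col4a2 had 57 and 66 loops in the KO-labelled list and none in the WT-labelled list, and 7 loops with 36 tags joined the pair to each other. Loops in the KO-labelled list alone were also found at Col27a1 (34), Col5a3 (31), Col15a1 (12), Col7a1 (9), Col17a1 (9) and Col11a2 (5), of which Col27a1, Col5a3 and Col17a1 were not called in RNA and Col15a1 was not tested. The last 6 genes with loops in the KO-labelled list alone had 1 to 3 each: Col4a4, Col6a1, Col6a2, Col6a3, Col8a2 and Col20a1. Col2a1 had 7 loops in the KO-labelled list and 1 in the WT-labelled list.

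Several of the chains that rose furthest in RNA had no loop. Over all protein-coding genes, 54.3% had a kept loop in the KO-labelled list and 37.8% in the WT-labelled list, so genes without one were common. Of the 26 chains higher in RNA, 16 had a loop in the KO-labelled list and 6 in the WT-labelled list, and 10 had none in either. Among those 10 were Col1a2, Col3a1, Col5a2, Col4a5, Col4a6, Col8a1 and Col12a1, which include several of the chains that rose furthest. Before filtering, Col1a2 had 3 loops of 1 tag each in the KO-labelled list and none in the WT-labelled list, and Col3a1 and Col8a1 had none in either list. Both chains that were lower in RNA, Col9a2 and Col13a1, had loops in both lists, 17 in the KO-labelled list and 5 in the WT-labelled list together.

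Col9a2, the chain that fell furthest, had a loop anchor within 2500 bases of its start in both lists. In the KO-labelled list it was joined to a site near Rlf, 174 kb away, by 4 tags, and in the WT-labelled list to an overlapping site 173 kb away by 5 tags. The contact was thus called in both lists, on few tags in each. The 250 bases before its start, chr4:121039316-121039565, plus strand, lie inside the KO-labelled anchor and outside the WT-labelled one, which begins downstream of the start. They hold 1 match to CACCC on the minus strand, written as GGGTG in capitals, and 2 to GGGCGG or its reverse complement.
Col9a2: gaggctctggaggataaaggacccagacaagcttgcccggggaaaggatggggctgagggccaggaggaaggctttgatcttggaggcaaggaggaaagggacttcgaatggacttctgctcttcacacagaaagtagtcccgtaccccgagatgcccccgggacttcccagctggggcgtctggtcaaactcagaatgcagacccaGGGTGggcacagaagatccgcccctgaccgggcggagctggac
Over all 38 RefSeq windows of 35 collagen genes, GGGCGG on either strand was found in 57.9%, against 32.7% of 32841 windows of all genes, and CACCC on either strand in 68.4%, against 52.0%. CCAAT was found in 34.2%, against 33.9%, TATAAA in 13.2%, against 12.4%, and the AP-1 motif TGANTCA in 2.63%, against 6.75%. Median GC content was 59.0% in the collagen windows, against 52.4% in all windows. Motif shares depend on base composition, and these are descriptions of the sequence.

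Col18a1 was the gene with the most tags in the WT-labelled list, with 6 loops and 75 tags there, and had 66 loops and 323 tags in the KO-labelled list. In the WT-labelled list its start was joined to a site 29.6 kb upstream by 35 tags, and a site inside the gene was joined to the same upstream site, 62.7 kb away, by 29 tags. The second of these had an overlapping partner of 9 tags in the KO-labelled list, and the first had none. Of the 61 loops that left the gene in the KO-labelled list, 18 with 141 tags ended at no protein-coding gene. The protein-coding genes met most often at the far ends were Fam207a (13 loops, 31 tags), Adarb1 (10 loops) and Pcbp3 (9 loops). Col16a1 had 54 loops in the KO-labelled list and 5 in the WT-labelled list, and Col9a3 had 26 in the KO-labelled list and 1 in the WT-labelled list. At Col13a1, Col23a1 and Col26a1 there were 15, 12 and 12 loops in the KO-labelled list, and 4, 3 and 4 in the WT-labelled list.

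**Figure D5:**
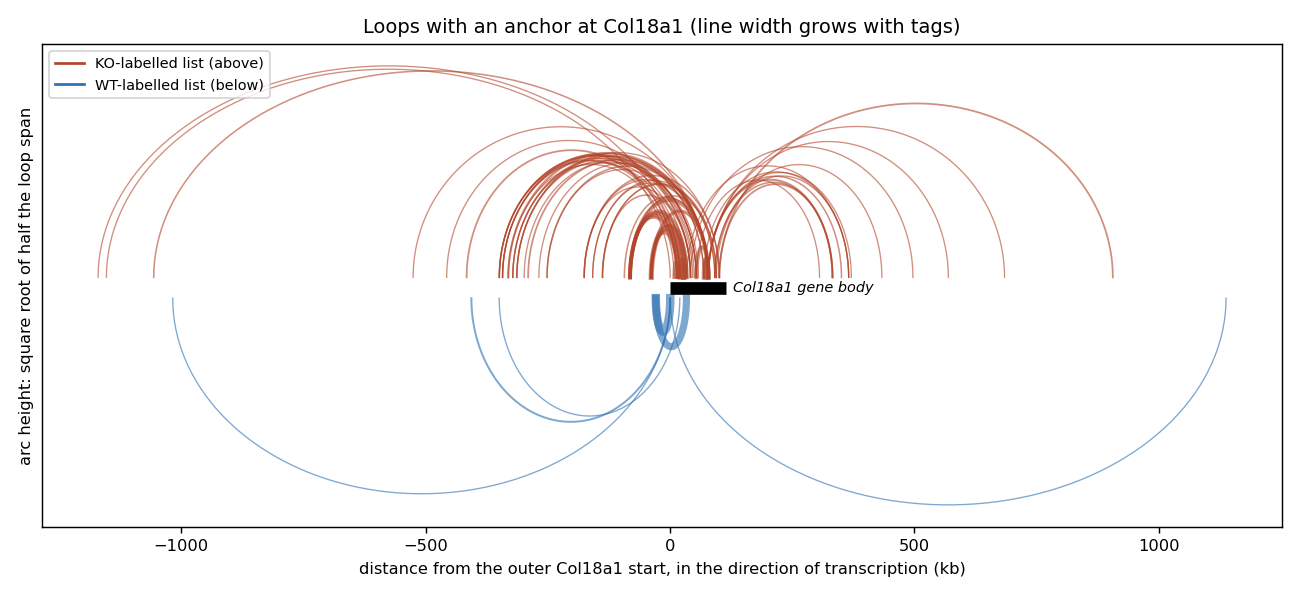
Kept loops with an anchor at Col18a1, drawn as arcs over the distance in kb from its outer start in the direction of transcription, with KO-labelled loops above and WT-labelled loops below, arc height growing with the span, and line width growing with tags. The 2 thick arcs below join the start and the gene body to the same upstream site, and the 66 arcs above reach several sites on either side.

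Few collagen loops were found in both lists. With both anchors overlapping, 6 of the 577 loops of the KO-labelled list (1.04%) had a partner in the WT-labelled list, and 3 of the 25 loops of the WT-labelled list (12.0%) had one in the KO-labelled list. Over all kept loops the shares were 4.83% of the KO-labelled list and 11.8% of the WT-labelled list. The loops with a partner lay at Col9a3, Col9a2, Col18a1 and Col1a1 in the KO-labelled list. For Col1a1, the partners in the WT-labelled list had an anchor that overlapped the KO-labelled anchor but lay beyond the 2500-base window.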

How the data were processed

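RNA-seq (4 libraries) and RNA polymerase II HiChIP (1 loop list per label, named by both of its 2 samples, so replicates appear pooled) were analysed, and 18 ChIP-seq samples of ESCs are not analysed here. Groups come from sample titles. Each condition has 2 biological replicates by the series design, whose spread is what the p-values measure. Collagen genes, lists and tests were chosen with earlier results of these data known. In addition, 1 alternative (loops at RefSeq starts only) was chosen after seeing the data.

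The authors deposited raw counts per gene symbol. HISAT2 2.1.0, featureCounts 2.0.3, DESeq2 1.18.1, MACS2 2.2.7.1, Bowtie2 2.4.4 and HiC-Pro 2.11.1, with the build mm10, stand in the submitters' processing notes. Because the count files end in rows named as by htseq-count, which program counted is not settled, and neither its annotation nor its strandedness is given in the sources used here. The 5 rows naming no gene, 20.4% to 22.5% of each column, stayed out. Each deposited loop list holds, per the authors' own calls, a tag count and a false discovery rate (q-value) per loop, and the loop caller is not given in the sources used here.

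Genes were filtered with filterByExpr, scaled by TMM (factors 1.075 and 1.076 for KO-labelled, 0.931 and 0.928 for WT-labelled libraries). The test was that of edgeR 4.0.16 under R 4.3.3 (robust glmQLFit, glmQLFTest, two-sided), adjusted by Benjamini-Hochberg over 17273 genes. The procedure was tested on simulated data. Standard errors are log2 fold changes over the root of F, which is too small where a large fold change rests on few counts. None is printed for Col1a1 and Thbs1 for that reason. A count of 3 was worth 0.0837 to 0.108 CPM, and floors and intervals (Clopper-Pearson, 95%) cover counting error only. Replicates correlated at 0.990 (KO-labelled) and 0.988 (WT-labelled) in log CPM, and no pair of libraries agreed within sampling noise. Named genes are Klf4, tested collagen chains, with values per library at 5 CPM or an absolute log2 fold change of 3, the 2 largest rises and 2 largest falls called in each partner list, and for loops genes with at least 5 loops or loops in 1 list alone. Other chains, and those not tested, are given so that every member is accounted for. Markers that make up most of a sum, or were at 0 in the WT-labelled libraries, are named as well. Gene positions, starts and promoter sequences are RefSeq's on GRCm38.p6; 35 of 44 collagen genes had a promoter entry. Alternatives were DESeq2, library size alone, upper-quartile and RLE factors, no filter, the replicate number as a block, leaving out each library, and other loop thresholds and windows.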

Additional observations from a re-analysis of the deposited data

How the results depend on the processing

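With 2 libraries per label and 1 loop list per label, RNA calls rest on little replication and loops on none. Chains higher in KO-labelled libraries numbered 26, with 24 under DESeq2, 27 with library size alone or upper-quartile factors, 26 with RLE factors, 25 without the filter and 23 to 29 on leaving out each library; chains lower numbered 2 to 3 throughout. Partner genes numbered 42 higher (40 to 50) and 21 lower (18 to 22). Replicate numbers did not pair the libraries (correlation of deviations 0.02), and with the replicate block 24 chains were higher and 2 lower, Col6a4 (adjusted p = 0.0867) and Col9a3 (0.0549) losing their calls, as did P4ha3 (0.0679). Without scaling factors the median of all genes moved by 0.21 on the log2 scale and the share of calls that were higher was 62.0%, against 50.9%. Of 360 refits of single genes, taken over the tested chains and the partner genes Colgalt1 and Colgalt2, 341 kept their call. A call was gained in 6, among them Colgalt2 with library size alone, and lost in 13, and none reversed. Plod2 (0.15), Plod3 (0.14) and Nid2 (0.14) reversed with library size alone, from -0.06, -0.07 and -0.07, which that setting's shift exceeds.

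For collagen loops, keeping every deposited loop gave 4090 loops in the KO-labelled list and 178 loops at 16 genes in the WT-labelled list. A false discovery rate of at most 0.001 with at least 3 tags gave 203 in the KO-labelled list and 7 at 5 genes in the WT-labelled list. A window of 10000 bases gave 43 in the WT-labelled list, and starts only gave 66 loops at 11 genes in the KO-labelled list and 6 at 3 genes in the WT-labelled list. Allowing anchors within 5000 bases of each other gave 14 shared collagen loops in the KO-labelled list and 5 in the WT-labelled list. These moves follow from the thresholds' own construction.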
